A study of Mus musculus with 15 samples.

Results

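The genes described here encode the nuclear subunits of mitochondrial complexes II to V, the part of the oxidative phosphorylation machinery other than NADH dehydrogenase (complex I). Members were chosen by symbol: Sdha, Sdhb, Sdhc, Sdhd and Cyc1, every symbol that begins with Uqcr or Atp5, and every symbol that begins with Cox followed by a digit from 4 to 8 and a letter. This gave 48 of the 22180 genes measured on the arrays, of which 4 belong to complex II, 9 to complex III, 17 to complex IV and 18 to complex V. The 48 included 2 annotated pseudogenes, Uqcrh-ps1 and Atp5c1-ps. Uqcr10 and Cox6c occurred only in array entries that carry several gene symbols and were not analysed here, and none of the 13 genes of the mitochondrial genome was among the genes measured.

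Kidneys came from mice with PRCC-TFE3, a fusion gene of renal cell carcinoma, knocked in at Rosa26 behind a loxP-flanked stop cassette, and each kidney was hybridised to an Affymetrix Mouse Gene 2.0 ST array. Cre recombinase under the KSP promoter, which is active in kidney tubule epithelium, removes the cassette. All 15 mice carried the knock-in: 4 mice without KSP-Cre (Cre-) and 4 with it (Cre+) were 4 months old, and 3 Cre- and 4 Cre+ mice were 7 months old. No group had KSP-Cre without the knock-in, so an effect of Cre itself and an effect of the fusion cannot be told apart. The fusion transcript itself was not analysed here. The arrays read RNA of whole kidney, in which fewer cells of a type and less RNA per cell cannot be told apart.

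Complex II (succinate dehydrogenase) takes electrons from succinate, a citric acid cycle intermediate, and passes them to ubiquinone. Complex III (the cytochrome bc1 complex) passes them on to cytochrome c, complex IV (cytochrome c oxidase) hands them to oxygen, and complex V (ATP synthase) uses the proton gradient built up by the chain to make ATP. Complexes III, IV and V combine nuclear subunits with subunits made from mitochondrial DNA, while all subunits of complex II are nuclear. Proximal and distal tubules of the kidney are rich in mitochondria because reabsorption of sodium consumes ATP.

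Kidney identity was clear on every array. The 18 proximal tubule markers had array means (log2) of 11.22 to 11.33 in the 4-month Cre- group, and even the 7-month Cre+ group, the lowest, lay at 9.73 to 10.26, far above the array medians of 4.4 to 4.55. Measured Y-linked genes (3) divided the arrays into 8 with a mean of 6.92 or more and 7 with a mean of 2.98 or less, and both kinds occurred in every group, with 1 low array among the 7-month Cre- kidneys. Sex is not among the labels. The first 7-month Cre- array stood apart from the other 2 of its group: it was the highest of all 15 arrays for Cox7a1, Cox7b, Atp5h and Atp5k, and it is therefore left out in turn below. It is also the 1 low array of that group, with a Y-linked mean of 2.86 against 7.46 and 7.36. Leaving it out therefore also unbalances the Y-linked kinds between Cre- and Cre+, and these 2 changes cannot be told apart. Of the 48 members, 44 had a mean above 3.93, the highest value of Xist among arrays with high Y-linked values, where that gene should be silent. The 4 below it were Cox7b2, Cox8c and both pseudogenes, for which a lack of difference may be a lack of signal.

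Promoters are shown because respiratory genes are textbook targets of shared activators, among them NRF1, the ETS family factor GABP and the estrogen-related receptors. Whether these activators act on the subunits here was not tested. The 200 bases before the annotated start are given 5′ to 3′ on the gene's strand for 8 members, from RefSeq on GRCm38.p6. Capitals mark the NRF1 motif (GCGCA and GCGC with any 1 base between them), CCGGAAG (the ETS core) AAGGTCA (the estrogen-related receptor motif) or CACGTG (the E-box core that MiT family factors such as TFE3 bind) on either strand, so that the ETS core can also appear as CTTCCGG and the receptor motif as TGACCTT. The 8 were picked by hand and do not show how common the motifs are, for which the counts below stand. The first 5 genes were lower in Cre+ kidneys at 7 months. Of these, Sdhd, Atp5g3, Atp5k and Atp5l are among the only 5 members with the receptor motif in the longer window counted below. Cox6a1, with NRF1 motifs and an ETS core, and Uqcrh, with an ETS core alone, were not called different at 7 months, and Cox7a1 had the largest difference of all members and none of these motifs in the window.
Sdha (chr13:74350241-74350440, minus strand): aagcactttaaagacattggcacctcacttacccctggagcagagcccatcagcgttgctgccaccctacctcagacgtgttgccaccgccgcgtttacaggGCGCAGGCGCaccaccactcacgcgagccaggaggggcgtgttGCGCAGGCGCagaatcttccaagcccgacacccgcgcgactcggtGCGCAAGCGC
Sdhd (chr9:50603850-50604049, minus strand): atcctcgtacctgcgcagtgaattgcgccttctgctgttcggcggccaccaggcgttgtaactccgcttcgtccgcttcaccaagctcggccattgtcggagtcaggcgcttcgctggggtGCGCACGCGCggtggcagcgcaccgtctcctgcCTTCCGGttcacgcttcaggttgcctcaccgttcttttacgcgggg
Atp5g3 (chr2:73911327-73911526, minus strand): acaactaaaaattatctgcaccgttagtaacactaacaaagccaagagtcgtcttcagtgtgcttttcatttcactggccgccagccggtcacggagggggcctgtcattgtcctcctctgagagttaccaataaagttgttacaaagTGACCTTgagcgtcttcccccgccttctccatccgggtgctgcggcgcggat
Atp5k (chr5:108434400-108434599, minus strand): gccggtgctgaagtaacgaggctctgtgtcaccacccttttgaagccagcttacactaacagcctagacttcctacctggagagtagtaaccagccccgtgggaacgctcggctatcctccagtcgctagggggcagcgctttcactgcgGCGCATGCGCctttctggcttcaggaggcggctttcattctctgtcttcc
Atp5l (chr9:44920743-44920942, minus strand): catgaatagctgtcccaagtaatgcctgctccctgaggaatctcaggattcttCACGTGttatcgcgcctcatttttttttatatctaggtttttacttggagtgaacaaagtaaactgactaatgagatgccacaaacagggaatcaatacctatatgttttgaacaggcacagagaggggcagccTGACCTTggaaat
Cox6a1 (chr5:115348959-115349158, minus strand): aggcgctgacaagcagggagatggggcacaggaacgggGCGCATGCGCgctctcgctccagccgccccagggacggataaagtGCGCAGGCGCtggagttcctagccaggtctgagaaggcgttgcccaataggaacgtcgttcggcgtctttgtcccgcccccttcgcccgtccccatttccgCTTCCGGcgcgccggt
Uqcrh (chr4:116075071-116075270, minus strand): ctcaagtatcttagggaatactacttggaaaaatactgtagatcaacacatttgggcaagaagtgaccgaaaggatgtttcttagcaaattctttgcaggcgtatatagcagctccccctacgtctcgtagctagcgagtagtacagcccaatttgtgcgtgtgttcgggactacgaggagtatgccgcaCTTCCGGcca
Cox7a1 (chr7:30183971-30184170, plus strand): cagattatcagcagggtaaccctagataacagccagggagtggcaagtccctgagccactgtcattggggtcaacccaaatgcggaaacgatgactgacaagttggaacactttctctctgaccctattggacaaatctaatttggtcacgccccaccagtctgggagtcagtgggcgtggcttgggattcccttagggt

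Sdha holds 3 NRF1 motifs, which begin 98, 55 and 10 bases before the start. Sdhd holds an NRF1 motif (79 bases before the start) and an ETS core (46 bases), Atp5k an NRF1 motif at 50 bases, Atp5g3 a receptor motif at 52 bases, and Atp5l an E-box at 147 and a receptor motif at 13 bases. Further matches in some of these windows lie outside the bases printed. Cox6a1 has NRF1 motifs at 162 and 117 bases and an ETS core at 16, and Uqcrh an ETS core at 10. RefSeq promoter windows, from 250 bases before to 50 after the start, were found for 35 of the 48 members. In these windows, on both strands, the NRF1 motif occurred in 10 of 35 members (28.6%) and in 5.19% of the 27025 genes with a window. ETS cores were found in 13 members (37.1%) against 9.93% of all genes, and the receptor motif in 5 (14.3%) against 5.38%. The E-box core occurred in 4 members (11.4%: Atp5g1, Atp5g3, Atp5l and Atp5pb) against 8.09% of all genes. The longer lysosomal CLEAR motif, the E-box flanked by GT and AC, occurred in 0 of the 35 and in 0.37% of all genes. Among the 24 members with a window that were lower at 7 months, 8 held the NRF1 motif, 10 the ETS core, 5 the receptor motif and 4 the E-box. Among the 11 others the counts were 2, 3, 0 and 0. The shares of all genes cover every gene with a window, not only those measured here, and no set of genes as bright as the members was compared. A motif match is a description of the letters and does not show binding.

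At 7 months the subunits were lower in Cre+ kidneys as a group. Of the 48 members, 31 fell (64.6%) and 0 rose at an adjusted p under 0.05 (limma, Benjamini-Hochberg over all 22180 genes), where 10.8% of all genes fell and 11.7% rose. The median log2 difference of the members was -0.51, against -0.04 for all genes, and 42 of the 48 differences were below 0. In 33 members every Cre+ array lay below every Cre- array, which held for 15.2% of all genes. The opposite held for 1 member, Cox8c, at the limit of signal. All 4 members of complex II fell (median -0.58), 6 of 9 in complex III (-0.58), 7 of 17 in complex IV (-0.32) and 14 of 18 in complex V (-0.50). Over the 44 members with a mean above 3.93 these medians were -0.58, -0.63, -0.48 and -0.51, so that complex IV lay closer to the others. Without the first 7-month Cre- array, 25 members fell and 10.2% of all genes fell: 4 in complex II, 5 in complex III, 3 in complex IV and 13 in complex V. The members that lost the call were Atp5b, Cox4i1, Cox5b, Cox6a2, Cox6b1 and Uqcr11. Without that array the 7-month Cre- group holds arrays of high Y-linked values only, while the Cre+ group holds both kinds. Centring each array on its median gave 35 members lower, where 16.3% of all genes fell. The share of higher genes among all calls at 7 months then went from 52% to 39.3%.

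Array levels of each complex, as the mean over its members relative to the 4-month Cre- kidneys, show how far the groups stood apart. Complex II had a level of -0.55, -0.74, -0.56 and -0.58 in the Cre+ kidneys at 7 months and -0.01, -0.02 and 0.11 in the Cre- kidneys. Complex III had -0.39, -0.49, -0.35 and -0.40 against 0.09, 0.00 and 0.11. The spread between mice, pooled over the 4 groups, was an SD of 0.07 for both complexes, so the groups were several SD apart and did not overlap. Complex V also separated the groups, with -0.41, -0.56, -0.37 and -0.52 against 0.21, 0.00 and -0.01 (SD 0.11). Complex IV had -0.31, -0.35, -0.12 and -0.27 against 0.40, -0.02 and -0.04. Its groups did not overlap either, but its SD of 0.16 was the largest of the 4 complexes, and the first Cre- array lay far above the other 2.

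**Figure D1:**
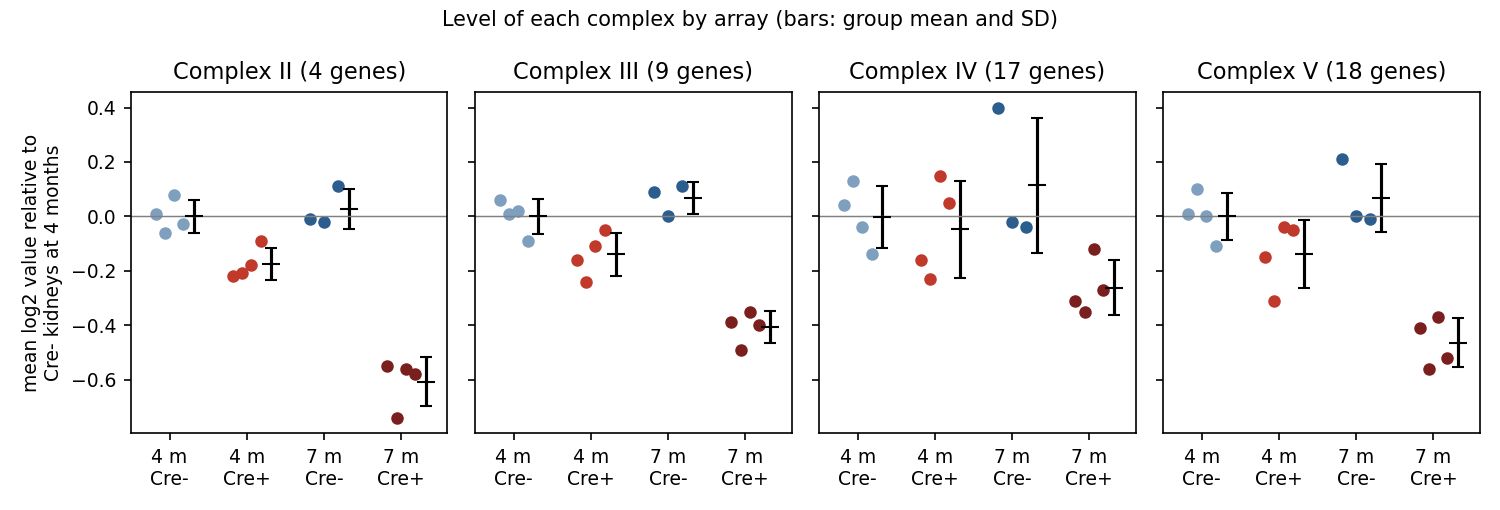
Level of each complex in each of the 15 arrays (y axis: mean over members of the log2 value minus that member's mean in the 4-month Cre- kidneys) by age in months (m) and Cre group, with the group mean and SD as bars. All 4 Cre+ arrays at 7 months lie below the 3 Cre- arrays of that age in each complex, from -0.74 to -0.55 in complex II, and the first 7-month Cre- array stands at 0.40 in complex IV.

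Complex II fell as a whole, from the flavoprotein to the membrane anchors. Sdhb, the iron-sulfur subunit that relays electrons from the flavin to ubiquinone, had log2 values of 8.91, 8.93 and 9.11 in Cre- kidneys and 8.03, 8.07, 8.29 and 8.15 in Cre+ kidneys at 7 months. No Cre+ array came near the Cre- range, and the difference was -0.85 (SE 0.11, 1.80-fold lower, adjusted p 2.1e-05). Sdhd, a membrane anchor of the quinone site, read 9.66, 9.37 and 9.60 against 8.93, 8.93, 8.91 and 8.88. Its Cre+ arrays lay within 0.05 of each other, and it fell by 0.63 (SE 0.10, adjusted p 0.00018). Sdhc, the partner anchor, read 9.25, 9.42 and 9.40 against 8.94, 8.51, 8.90 and 8.91 (difference -0.54, SE 0.12, adjusted p 0.0024). Sdha, the flavoprotein that oxidises succinate, read 11.07, 11.13 and 11.27 against 10.82, 10.46, 10.61 and 10.68 (difference -0.51, SE 0.10, adjusted p 0.0012). In both, the second Cre+ array was the lowest and the groups did not overlap.

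In complex III the nuclear subunits that carry out electron transfer, Cyc1 and Uqcrfs1, and the core proteins fell, while 2 of the 4 accessory subunits did not. Subunits made from mitochondrial DNA were not measured. Uqcrc1, a core protein, read 9.76, 9.57 and 9.31 in Cre- and 8.44, 8.59, 8.70 and 8.54 in Cre+ kidneys at 7 months. The difference of -0.98 (SE 0.13, 1.97-fold lower, adjusted p 2.9e-05) was the largest of the complex. Uqcrfs1, the Rieske iron-sulfur protein, read 6.97, 6.95 and 7.03 against 6.27, 6.13, 6.23 and 6.15. Replicates of this gene were tight in both groups, and its adjusted p of 5.6e-06 (difference -0.78, SE 0.09) was the smallest of the 48. Cyc1, the haem-bearing cytochrome c1, read 8.82, 8.64 and 8.70 against 7.96, 7.66, 8.12 and 7.85 (-0.82, SE 0.14, adjusted p 0.00039). Uqcrc2, the other core protein, read 10.62, 10.63 and 10.79 against 10.23, 9.99, 10.11 and 10.08 (-0.58, SE 0.10, adjusted p 0.00024). None of these 4 genes had an overlap between the groups.

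Among the small accessory subunits of complex III, Uqcrq fell by 0.69 (SE 0.16, adjusted p 0.0043) and Uqcr11 by 0.46 (SE 0.14, adjusted p 0.021). Uqcrb, which lies at the quinone site, read 11.60, 11.42 and 11.57 against 11.43, 11.29, 11.27 and 11.25, and its groups overlapped (-0.22, SE 0.11, adjusted p 0.16). Uqcrh, the acidic hinge protein at the cytochrome c docking site, read 8.88, 8.98 and 9.21 against 9.16, 9.05, 9.24 and 9.32. Its difference was above 0 (0.17, SE 0.12, adjusted p 0.35), and the arrays of both groups were interleaved. Uqcrh-ps1 lay near 2 on every array, with a difference of 0.09.

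Complex IV was uneven, with differences from -1.21 to 0.37 at 7 months. Its subunits come in part as pairs of isoforms, of which the general isoform is made in most tissues and the other in heart and skeletal muscle, lung or testis. Among the 6 general isoforms 3 fell (median -0.57), among the 3 subunits with a single isoform 2 fell (-0.48), and among the 7 tissue isoforms 2 fell (-0.17). Cox7a2 had the smallest adjusted p of the complex: it read 9.03, 8.91 and 8.58 at 7 months in Cre- and 8.05, 8.10, 8.19 and 8.07 in Cre+ kidneys (-0.74, SE 0.12, adjusted p 0.00026). Cox5a, a subunit on the matrix side, read 9.66, 9.66 and 9.70 against 9.30, 9.13, 9.11 and 9.24 (-0.48, SE 0.10, adjusted p 0.0023). In both genes the groups were apart on every array, and both kept the call without the first 7-month Cre- array.

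Cox4i1, which is required for assembly of the oxidase, read 10.37, 9.98 and 9.87 against 9.50, 9.42, 9.72 and 9.57 (-0.52, SE 0.15, adjusted p 0.021). Cox5b, the zinc-binding subunit, differed by -0.62 (SE 0.20, adjusted p 0.030) and Cox6b1, which faces the intermembrane space, by -0.62 (SE 0.19, adjusted p 0.023). These 3 genes were highest on the first Cre- array. Without it Cox4i1 differed by -0.37 (adjusted p 0.13), Cox5b by -0.39 (adjusted p 0.19) and Cox6b1 by -0.43 (adjusted p 0.14). Cox7b, whose product lies in the membrane, read 10.09, 9.05 and 8.13 against 8.24, 8.13, 8.34 and 7.84. Its large difference of -0.95 came with an SE of 0.34 and was not called (adjusted p 0.051), and it was -0.46 (adjusted p 0.31) without that array. Cox6a1 (-0.23, adjusted p 0.12), Cox8a (-0.32, adjusted p 0.061) and Cox7c (-0.10, adjusted p 0.63) did not pass the test. Cox7a2l, a relative of the Cox7a subunits that joins complexes III and IV into supercomplexes, differed by 0.04 (SE 0.13, adjusted p 0.89).

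Cox7a1, the heart and muscle isoform of subunit VIIa, had the largest difference of all 48 members. It read 7.65, 6.48 and 6.75 in Cre- kidneys and 5.75, 5.36, 5.92 and 5.96 in Cre+ kidneys at 7 months, and fell by 1.21 (SE 0.25, 2.32-fold, adjusted p 0.0016). Without the first Cre- array it fell by 0.87 (SE 0.22, adjusted p 0.011). Ucp1, which marks brown fat, read 8.58, 4.26 and 7.23 in these Cre- kidneys and 3.48, 3.68, 4.33 and 5.46 in the Cre+ kidneys, and Cidea, also of brown fat, read 7.11, 5.51 and 7.05 against 5.33, 5.67, 5.92 and 6.26. Cox7a1 is also known from brown fat. In the 4 Cre- kidneys at 4 months Cox7a1 read 6.52, 7.09, 6.49 and 6.34, and Ucp1 7.28, 3.94, 6.42 and 5.24. There the highest Cox7a1 value came with the lowest Ucp1 value. Of the 8 adipocyte markers measured 2 fell, Ucp1 (-2.46, SE 0.86, adjusted p just under the threshold at 0.050) and Lep (-0.81, SE 0.12, adjusted p 7.2e-05), and the array means of the 8 ranged from 5 to 6.28 in Cre- and from 4.02 to 5.70 in Cre+ kidneys. The median difference of the 8 was -0.79, and Adipoq differed by -0.08 (SE 0.37, adjusted p 0.92). Group means of single markers in the 7-month Cre- kidneys ran from 4.25 (Lep) to 7.39 (Retn). Of the 9 striated muscle markers 1 fell, Acta1 (-0.35, SE 0.12), with a median of -0.07 over the list. At 7 months 10.8% of all genes fell. The part of fat or muscle RNA in the result was not tested.

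Cox6a2, another heart and muscle isoform, read 5.32, 4.66 and 4.34 against 3.50, 4.57, 4.13 and 3.62 and fell by 0.82 (SE 0.25, adjusted p 0.026). Its groups overlapped, and without the first Cre- array the difference was -0.54 (adjusted p 0.16). Cox8b, the heart and muscle isoform of subunit VIII, did not pass the test at 7 months (0.37, SE 0.40, adjusted p 0.57). The lung isoform Cox4i2 (-0.10, adjusted p 0.75), the testis isoforms Cox6b2 (-0.22, adjusted p 0.35) and Cox7b2 (-0.17, adjusted p 0.38) and Cox8c (0.29, adjusted p 0.13) did not pass it either.

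**Figure D2:**
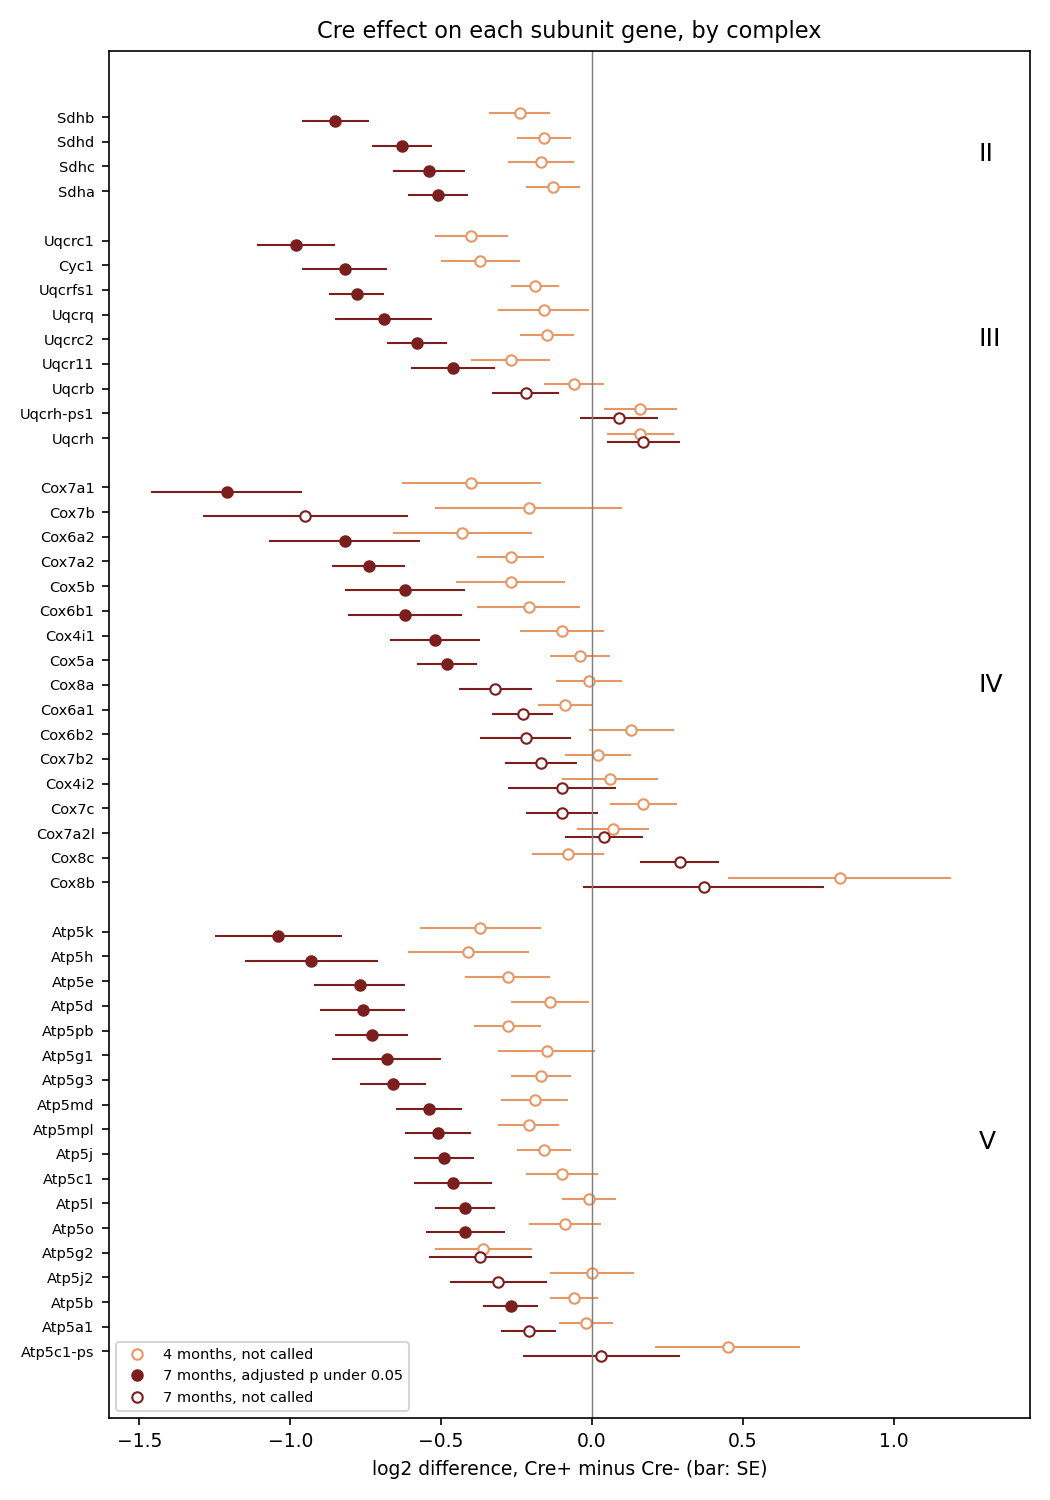
Log2 difference between Cre+ and Cre- kidneys (x axis, bar: SE) for each of the 48 subunit genes (y axis), grouped by complex, at 4 months in light and at 7 months in dark colour. Filled points passed an adjusted p of 0.05. At 7 months 31 points are filled and all of these lie below 0, down to -1.21 for Cox7a1, and at 4 months 0 are filled.

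In complex V all 3 central stalk and all 4 peripheral stalk subunits fell, Atp5h on the brighter of its 2 entries only. Of the c ring genes 2 of 3 fell, and of the accessory subunits of the membrane part 4 of 5. The 2 subunits of the catalytic head had a median of -0.24. Atp5b, the catalytic beta subunit, read 12.28, 12.26 and 12.31 in Cre- and 12.08, 11.96, 12.04 and 11.98 in Cre+ kidneys at 7 months. Its 1.20-fold difference (-0.27, SE 0.09, adjusted p 0.031) was the smallest of the 31 calls, although the groups were apart on every array, and without the first Cre- array the adjusted p was 0.071. Atp5a1, the alpha subunit, read 11.43, 11.44 and 11.54 against 11.40, 11.12, 11.29 and 11.24 (-0.21, SE 0.09, adjusted p 0.12). Both genes are among the brightest of the table.

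The 3 central stalk subunits of the rotor all fell. Atp5e (epsilon) read 8.35, 8.01 and 8.13 against 7.27, 7.38, 7.62 and 7.29 (-0.77, SE 0.15, adjusted p 0.00098). Atp5d (delta) read 7.95, 7.75 and 7.56 against 6.94, 6.80, 7.25 and 6.98 (-0.76, SE 0.14, adjusted p 0.00082), and Atp5c1 (gamma), the shaft itself, fell by 0.46 (SE 0.13, adjusted p 0.017). All 4 peripheral stalk subunits, which hold the head still, fell as well. Atp5pb, the main strut, read 10.04, 9.94 and 10 against 9.47, 9.15, 9.32 and 9.14 (-0.73, SE 0.12, adjusted p 0.00019). Atp5h differed by -0.93 (SE 0.22, adjusted p 0.0043) on the brighter of its 2 entries, and by -0.03 on the other, which was not called. The coupling factor Atp5j differed by -0.49 (SE 0.10, adjusted p 0.0018) and Atp5o, the oligomycin-sensitivity subunit, by -0.42 (SE 0.13, adjusted p 0.031).

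The c ring, which turns with the passage of protons, is encoded by 3 genes with the same mature protein, so that they differ only in their regulation and import sequences. Atp5g1 read 5.55, 5.36 and 5.16 at 7 months in Cre- and 4.24, 4.66, 4.97 and 4.83 in Cre+ kidneys (-0.68, SE 0.18, adjusted p 0.0092). Atp5g3 read 8.57, 8.30 and 8.32 against 7.82, 7.60, 7.88 and 7.65 (-0.66, SE 0.11, adjusted p 0.00036). Atp5g2 read 10.11, 9.80 and 9.43 against 9.34, 9.32, 9.69 and 9.28, where the third Cre+ array lay above the lowest Cre- array (-0.37, SE 0.17, adjusted p 0.13). The difference between these genes was not tested.

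Of the 5 accessory subunits in the membrane, 4 fell. Atp5k (subunit e), which helps ATP synthases to pair into dimers, read 8.83, 7.89 and 7.78 against 7.17, 7.04, 7.28 and 7.00 and was 2.06-fold lower (-1.04, SE 0.21, adjusted p 0.0016). Its first Cre- array was again the highest, and without it the difference was -0.71 (SE 0.17, adjusted p 0.0084). Atp5md (-0.54, SE 0.11, adjusted p 0.0020), the small proteolipid Atp5mpl (-0.51, SE 0.11, adjusted p 0.0022) and Atp5l (subunit g, -0.42, SE 0.10, adjusted p 0.0064) fell as well. Atp5j2 (subunit f) overlapped between the groups (-0.31, SE 0.16, adjusted p 0.18). Atp5c1-ps, at the limit of signal, differed by 0.03.

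**Figure D3:**
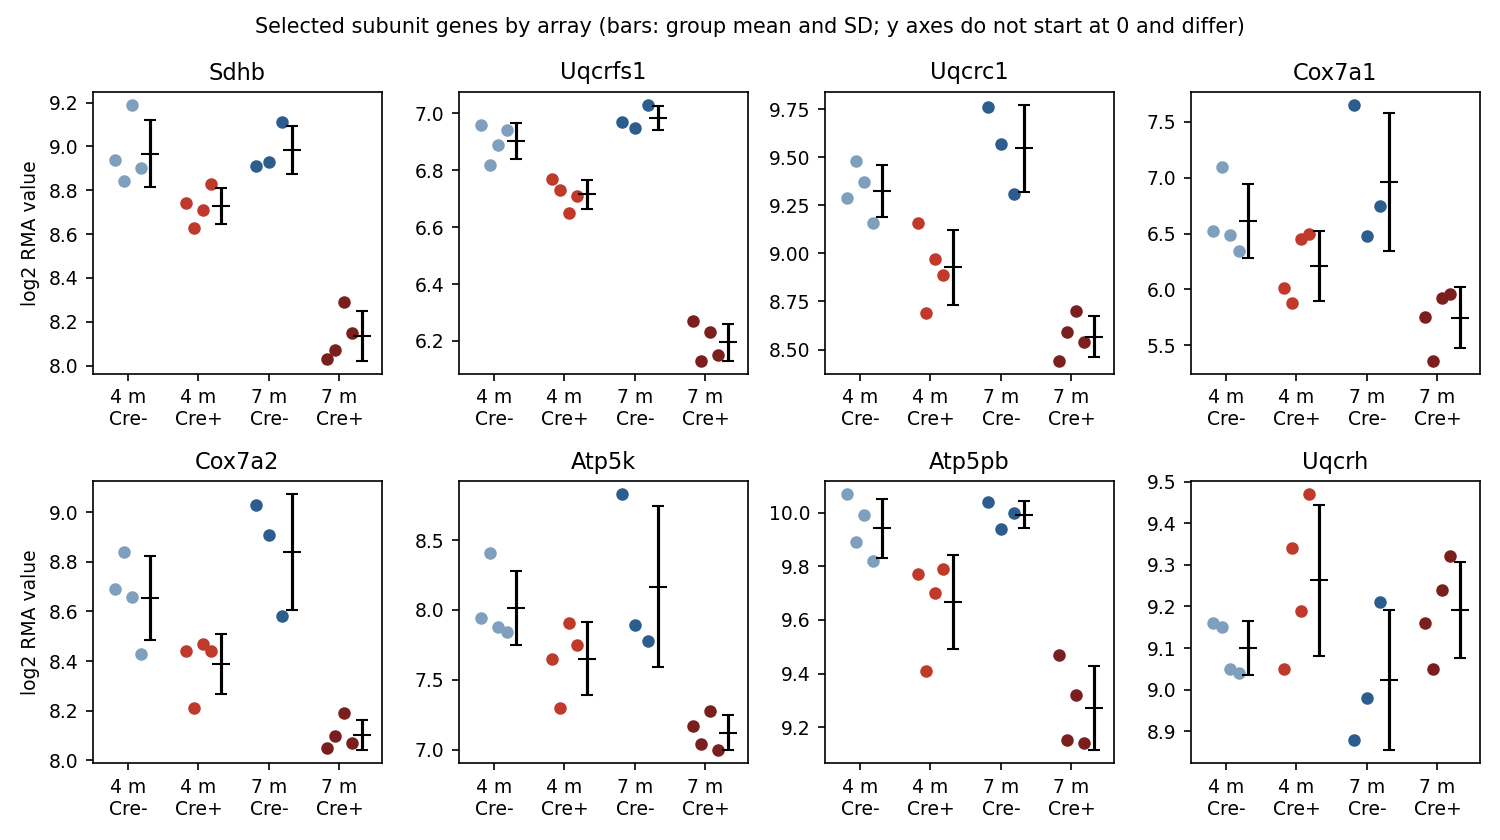
Log2 RMA values of 8 subunit genes on each of the 15 arrays (points), by age in months (m) and Cre group, with group means and SD as bars; the y axes differ and do not start at 0. Sdhb, Uqcrfs1, Uqcrc1, Cox7a1, Cox7a2, Atp5k and Atp5pb have all 4 Cre+ arrays below all Cre- arrays at 7 months, whereas the arrays of Uqcrh are interleaved.

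For 6 members the array has several entries with the same symbol, and the brightest was used. The dimmer entry of Atp5d fell too (-0.55, adjusted p 0.019), as did that of Atp5e (-0.57, adjusted p 0.0050), and the 2 entries of Atp5g2 gave -0.37 and -0.34, neither called. In contrast, the dimmer entries of Atp5h (-0.03), Cox5b (-0.02) and Cox7b (0.12) showed no called difference, at means of 5.87, 4.35 and 4.99. The differences given above for Atp5h, Cox5b and Cox7b therefore belong to their brighter entries only. The annotation used here gives no position for an entry, so it is not known whether the brighter entries of these 3 genes lie at the parent gene or at another locus with its symbol, and the promoter counts above, which take Atp5h and Cox5b as lower, carry the same doubt. With the mean of a gene's entries, Atp5h (adjusted p 0.059) and Cox5b (adjusted p 0.096) were no longer called.

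At 4 months the members showed smaller differences of the same sign, and none passed the test. Of the 48 members 0 fell and 0 rose by limma, where 0.803% of all genes fell and 2.73% rose. By unadjusted p under 0.05, 7 members were lower, against 5.31% of all genes, and 1, Cox8b, was higher, against 11% of all genes. Differences were below 0 for 39 members, and the median was -0.15 against 0.05 for all genes. Uqcrc1 came closest: it read 9.29, 9.48, 9.37 and 9.16 in Cre- and 9.16, 8.69, 8.97 and 8.89 in Cre+ kidneys (-0.40, SE 0.12, adjusted p 0.085), with the highest Cre+ and the lowest Cre- value equal after rounding. Cyc1 (-0.37, SE 0.13, adjusted p 0.15) and Atp5pb (-0.28, SE 0.11, adjusted p 0.20) followed. In 5 members, Sdhb, Sdhd, Uqcrc1, Uqcrfs1 and Atp5pb, every Cre+ array was below every Cre- array, which held for 3.16% of all genes.

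Complex II at 4 months had levels of -0.22, -0.21, -0.18 and -0.09 in Cre+ kidneys and 0.01, -0.06, 0.08 and -0.03 in Cre- kidneys, which did not overlap. Complex III had -0.16, -0.24, -0.11 and -0.05 against 0.06, 0.01, 0.02 and -0.09, with an overlap. The levels of complex IV were interleaved between the groups: 0.15 in the third and 0.05 in the fourth Cre+ kidney, -0.16 and -0.23 in the others. Sdhb read 8.94, 8.84, 9.19 and 8.90 against 8.74, 8.63, 8.71 and 8.83 (-0.24, SE 0.10, adjusted p 0.23). Cox8b read 4.68, 4.22, 4.45 and 4.77 against 4.45, 5.18, 6.23 and 5.56 (0.82, SE 0.37, adjusted p 0.28), with its highest values on the Cre+ arrays of low Y-linked values. With each array centred on its median, Cyc1 (-0.46, adjusted p 0.035) and Uqcrc1 (-0.49, adjusted p 0.042) were called, where 2.3% of all genes fell. The share of higher genes among all calls then went from 77.3% to 49.3%.

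Whether the Cre effect differed between the ages was tested directly. Differences of the Cre effect (7 minus 4 months) were below 0 for 46 members, with a median of -0.38 against -0.08 for all genes, and 2 passed the test, where 1.18% of all genes were lower and 0.960% higher. Uqcrfs1 fell by 0.60 more at 7 months (SE 0.12, adjusted p 0.015), and this call held under every alternative tried for it, with adjusted p values from 0.0063 to 0.039. Sdhb also fell by 0.60 more (SE 0.15, adjusted p 0.042), a call that was lost with array weights and without any of 12 of the 15 arrays. By unadjusted p under 0.05, 21 members were lower, against 10.1% of all genes, and 0 were higher, against 5.77%. The remaining members, Cox7a1 (-0.81, SE 0.34, adjusted p 0.24) and Uqcrc1 (-0.58, SE 0.18, adjusted p 0.11) among them, are not shown to differ between the ages.

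Between 4 and 7 months 14 of the 48 subunit genes fell in Cre+ kidneys and 34 did not pass the test. No member rose, where 6.71% of all genes were lower and 4.12% higher, and the median was -0.30 against -0.09 for all genes. Sdhb went from 8.74, 8.63, 8.71 and 8.83 to 8.03, 8.07, 8.29 and 8.15 (-0.59, SE 0.10, adjusted p 0.0012), and Sdhc (-0.44) and Sdhd (-0.39) fell with it. In complex III Uqcrfs1 (-0.52, SE 0.08, adjusted p 0.00056), Cyc1 (-0.45) and Uqcrc2 (-0.40) fell, and in complex IV Cox5a (-0.37) and Cox6b2 (-0.46). Atp5g1 (-0.58), Atp5d (-0.51), Atp5g3 (-0.42), Atp5pb (-0.40), Atp5j (-0.38) and Atp5md (-0.37) fell in complex V. Of these 14, 13 were among the 31 lower at 7 months, a comparison that shares the 7-month Cre+ arrays. The count depended on single arrays, and the share of all genes that fell went down with it. Without the third 4-month Cre+ array 8 members fell (4.8% of all genes), and without the fourth 6 (4.32%). Without the second 7-month Cre+ array 5 members fell (4.31% of all genes), and without the fourth 9 (4.55%).

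In Cre- kidneys the members did not move detectably with age. Of the 48, 0 passed the limma test and 1, Atp5j2, had an unadjusted p under 0.05 (0.36, SE 0.16), where 1.33% of all genes were higher and 1.37% lower at that threshold. The median was 0.07 against -0.01 for all genes, of which 0.00451% (1 gene) rose and 0% fell.

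Genes of the same pathways fell alongside the subunits at 7 months, where 10.8% of all genes fell. All 13 measured citric acid cycle genes fell (median -0.72), led by Idh2, the mitochondrial isocitrate dehydrogenase (-0.98, SE 0.12), and by Sucla2 (-0.82) and Suclg2 (-0.80), subunits of the enzymes that make succinate, the substrate of complex II. Of 33 complex I subunits 28 fell (median -0.62), with Ndufs8 (-0.95), Ndufa8 (-0.88) and Ndufa11 (-0.87) in front. Of 12 electron carriers and quinone synthesis genes 8 fell (-0.62), among them Coq8a (-0.98), Coq9 (-0.87) and Cycs, cytochrome c itself (-0.87). Fewer of these genes had fallen at 4 months, where 0.803% of all genes fell. Of 13 citric acid cycle genes 2 had, Idh2 (-0.63, SE 0.11, adjusted p 0.0021) and Sucla2 (-0.39). Of 33 complex I subunits 1 had, Ndufb3 (-0.51), and of 12 electron carriers and quinone synthesis genes 1, Coq9 (-0.42). Among 15 regulators of mitochondrial biogenesis 1 had, the mitochondrial transcription factor Tfb2m (-0.58).

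Some assembly factors of each complex also fell at 7 months, where 10.8% of all genes fell. These lists were not compared with genes of the same brightness. In complex II 2 of 4 fell, Sdhaf1 (-0.73), which helps to insert the iron-sulfur clusters of Sdhb, and Sdhaf4 (-0.42). In complex III 3 of 6 fell, Uqcc3 (-0.54), Bcs1l, which inserts the Rieske protein (-0.49), and Uqcc1 (-0.43). In complex IV 7 of 20 fell (median -0.26), with Cox20 (-1.01), Coa6 (-0.99) and Cox15, a haem A synthesis enzyme (-0.70), the largest. In complex V Fmc1 (-0.74), Tmem70 (-0.70) and Tmem242 (-0.52) fell, 3 of 5. Of 16 outer membrane proteins, carriers and chaperones 9 fell (-0.40), including the chaperonin Hspd1 (-0.76), its partner Hspe1 (-0.66) and the adenine nucleotide carrier Slc25a5 (-0.53).

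Among 15 regulators of mitochondrial biogenesis, 9 fell and 1 rose at 7 months, where 10.8% of all genes fell and 11.7% rose. Ppargc1b (-0.67, SE 0.12, adjusted p 0.00050) and Ppargc1a (-0.47, SE 0.14, adjusted p 0.023) encode coactivators, and Esrrg (-0.65) and Esrra (-0.60) the estrogen-related receptors they work with. Gabpa, the ETS subunit of GABP, fell by 0.40 (SE 0.10, adjusted p 0.0093). Nrf1 was not called (0.29, SE 0.11, adjusted p 0.073), and Pprc1, a relative of the coactivators, rose (0.42, SE 0.11, adjusted p 0.0087). Whether these regulators have a part in the fall of the subunits was not tested.

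Markers of kidney cell types moved in the same samples. Of all genes, 10.8% fell and 11.7% rose at 7 months, and the marker lists were not compared with genes of the same brightness. Of the 18 proximal tubule markers 17 fell at 7 months (median -1.30), led by Gatm (-2.18), Slc5a2 (-2.12) and Acsm2 (-1.76), and their array means went from 11.24 to 11.30 in Cre- to 9.73 to 10.26 in Cre+ kidneys. All 10 distal convoluted tubule markers fell (-0.76), as did 3 of 8 thick ascending limb markers (-0.33), where Cldn19 rose (0.75, adjusted p 0.0072), 5 of 12 of the collecting duct (-0.47), where Aqp3 rose (0.73, adjusted p 0.00017), 3 of 5 podocyte (-0.47) and 3 of 8 endothelial markers (-0.42). Of 17 macrophage and monocyte markers 16 rose (median 1.49), with array means of 5.59 to 5.89 in Cre- and 7.06 to 7.35 in Cre+ kidneys, and 7 of 9 lymphocyte (1.24) and 8 of 12 fibroblast and matrix markers (1.09) rose too. None of 5 adrenal cortex markers was called (0.05). At 4 months 3 proximal tubule markers had fallen (median -0.28) and 5 macrophage markers had risen (0.57). Of all genes, 0.803% fell and 2.73% rose at that age. The subunits thus had a smaller median difference than the proximal tubule list at both ages, and the part of cell composition in their fall was not tested.

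**Figure D4:**
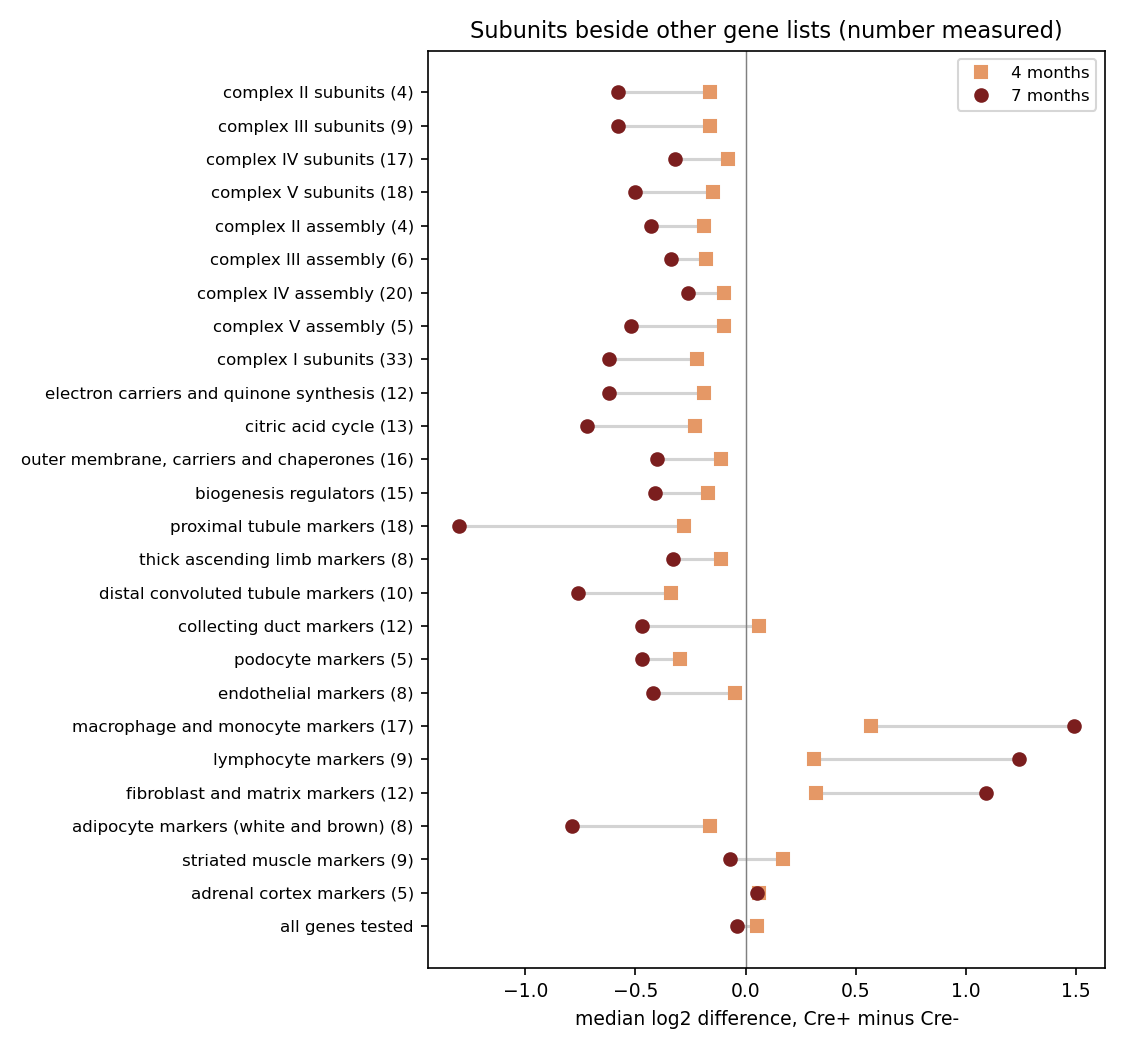
Median log2 difference between Cre+ and Cre- kidneys (x axis) of the subunits of each complex, of other mitochondrial gene lists and of cell type markers (y axis, number of genes measured in brackets), at 4 months (squares) and 7 months (circles). The 4 complexes lie at -0.58, -0.58, -0.32 and -0.50 at 7 months, between all genes (-0.04) and the proximal tubule markers (-1.30), while macrophage markers lie at 1.49.

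Signal level bears on how the count of calls reads, because brighter genes were called more often. At 7 months, among genes with a mean between 3.93 and 7, 9 of 15 members fell against 10.2% of all 9998 genes in that range. Between 7 and 9, 9 of 10 members fell against 20.8% of 3953 genes, and between 9 and 11, 11 of 14 against 38.2% of 830. Above 11 the share of members (2 of 5) was close to the 38.7% of all genes there.

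Y-linked values moved with few members. In a fit with a term for high or low Y-linked arrays beside the group means, 2 of 48 members were lower in the high arrays and 0 higher, where 2.22% of all genes were lower and 1.19% higher: Cox7a1 (-0.49, SE 0.12, adjusted p 0.030) and Cox8b (-0.77, SE 0.20, adjusted p 0.042). Within the arrays of high Y-linked values 20 members fell at 7 months, where 8.23% of all genes fell, and within those of low values also 20, where 5.52% did, with 13 members in common. The second fit has a single Cre- array at 7 months, the one that stood apart, and assumes that it varies like the other groups. Cox7a1 fell by 1.06 (SE 0.17, adjusted p 0.0015) within the high and by 1.71 (SE 0.27, adjusted p 0.0038) within the low arrays, Sdhb by 0.97 and 0.69, and Uqcrfs1 by 0.78 and 0.77, all called. At 4 months the low arrays gave 2 members that were higher in Cre+ kidneys, where 1.90% of all genes were, Cox8b (1.39, adjusted p 0.023) and Atp5c1-ps (1.10, adjusted p 0.0084). Within the high arrays Cox8b differed by 0.25 (adjusted p 0.79).

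The genes whose values were most like those of the subunits came from the same organelle. Against the mean of the 31 members lower at 7 months, over the 15 arrays, Pearson's r was 0.990 for Ndufs8, 0.988 for Ndufa8, 0.977 for Mrpl37, and 0.975 for both Ndufc1 and Idh3b. Ndufs8, Ndufa8 and Ndufc1 are complex I subunits, Mrpl37 is a protein of the mitochondrial ribosome and Idh3b is a subunit of isocitrate dehydrogenase. After subtraction of the group means r was 0.977, 0.936, 0.906, 0.828 and 0.826, over the arrays on which these genes were picked. These values share arrays and their normalization, and they are a description of likeness only.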

How the data were processed

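Total RNA of 15 whole kidneys, 1 mouse per array, was analysed from the deposited log2 values, which the authors made by RMA in Partek 6.6, per the submitters' processing notes. Of 41345 array entries, 23521 carried 1 gene symbol in the platform annotation, and the brightest entry of each gene was kept (22180 genes). Group means were fitted to all arrays with limma 3.58.1 in R 4.3.3 (lmFit and eBayes), and p-values were adjusted by Benjamini-Hochberg over all genes, with calls at 0.05. The n of each group is given in mice in the series' design, and the errors are between mice. Arrays have no read depth, and precision is limited by the number of arrays. Genes given with values were the catalytic subunits, the isoform sets, up to 5 called members per complex and comparison, and up to 3 called members per pathway list; others outside this rule were chosen after their values were seen. Members and gene lists were chosen with earlier results of these data known, so no list was given a p-value. Alternatives covered scaling, filtering, the variance model, a replicate block, entries, Y-linked values and each left-out array. Promoter motifs were searched in Python 3.11.15. Scripts were tested on simulated data.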

Additional observations from a re-analysis of the deposited data

Results flagged for a closer look

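Outlying arrays were looked for in 114 sets of 4 values by Dixon's ratio of the gap to the range, and chance picks out about 5% of such sets. In 7 sets an array stood apart from the rest of its group. Sdha and Atp5a1 were each highest in the fourth Cre+ kidney at 4 months, at 11.05 and 11.56. Cox7a2 was lowest in the second Cre+ kidney at 4 months (8.21) and Cox6a2 lowest in the third Cre- kidney at 4 months (4.24). In the second Cre+ kidney at 7 months Sdhc (8.51) and the level of complex II as a whole (-0.74) were lowest, and Atp5g2 was highest in the third (9.69). The 7-month Cre- group has 3 arrays and was not tested.

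The Cre effect differed between the ages for 2 members by the test of the difference itself: Sdhb (-0.60, SE 0.15, adjusted p 0.042) and Uqcrfs1 (-0.60, SE 0.12, adjusted p 0.015), each lower in Cre+ kidneys by more at 7 than at 4 months.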

How the results depend on the processing

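No called result changed sign under the alternatives run. At 7 months the count of lower members was 24 to 32 when any array was left out, where 8.42% to 11.1% of all genes were lower. Within the arrays of high Y-linked values it was 20, where 8.23% of all genes were lower. At 4 months 2 members were lower with each array centred on its median, where 2.3% of all genes were. The count was 1 with a plain linear model (Uqcrfs1, 0.537% of all genes) and 1 with array weights (Uqcrc1, 1.17%). When any array was left out it was 0 to 1, where 0.325% to 0.888% of all genes were lower. Within the low Y-linked arrays 2 members were higher, where 1.90% of all genes were. Centring moved the median of complex II to -0.25 and of complex III to -0.24 at 4 months, and to -0.66 and -0.65 at 7 months. Within the high Y-linked arrays these medians at 4 months were -0.26 and -0.25. Within the low ones complex III was at -0.05 at 4 months, and complexes IV and V at -0.49 and -0.64 at 7 months. A filter on dim genes moved the median of complex IV at 7 months to -0.50. For the difference between the ages 4 members were lower with that filter, where 2.81% of the 12296 genes kept were. The count was 4 with trended and robust variance (1.43% of all genes) and 1 with array weights (1.25%). When any array was left out it was 1 to 2, where 0.528% to 1.3% of all genes were lower. The median of complex III then ranged from -0.47 to -0.36. From 4 to 7 months in Cre+ kidneys 5 to 17 members were lower when any array was left out, where 4.31% to 6.87% of all genes were. The median of complex III ranged from -0.36 to -0.21. The causes were not tested. Of the values of single genes, 96 lost a call under an alternative and 19 gained one. A further 31 were not called in either fit and moved by more than their standard error, and 2092 did none of these. Quantile normalization moved the share of higher genes among all calls to 67.7% at 4 months and 45.1% at 7 months.

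Whether the replicate numbers pair the mice is not known. Deviations from the group means of same-numbered arrays correlated between -0.278 and 0.222. The correlation was positive where both arrays were of the same Y-linked kind and negative where they were of opposite kinds. It therefore cannot show whether mice of the same number were paired. With the replicate number as a block 30 members were lower at 7 months, where 10.5% of all genes were. Between the ages in Cre+ kidneys 12 were lower (6.51% of all genes), and for the difference between the ages 2 (1.05%).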
